A study of Mus musculus with 12 samples.

Results

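Copying a genome takes a set of proteins that load a helicase at origins, switch it on, unwind the DNA and build the new strands. The 45 genes described here encode that machinery in the mouse: the origin recognition complex and its loading factors, the MCM helicase and its activators, the sliding clamp and its loader, the replicative polymerases and primase, single-strand binding proteins, enzymes that finish the lagging strand, enzymes that make deoxynucleotides, and the chromatin remodeller Hells. They were taken from a list of gene names and not by their measured values, though earlier results of these data were known when the list was chosen. All 45 were measured, by 104 of the 45101 probe sets on the array, out of 18194 genes named by a probe set. For 35 of them more than 1 probe set was listed, and the brightest one was used.

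The study profiled total RNA of mouse otic vesicles and of a mouse otic cell line on 12 Affymetrix arrays, to follow Dlx5, a homeobox transcription factor of the developing inner ear. There were 6 groups of 2 arrays. The vesicle groups were wild-type at embryonic day 10 (E10), Dlx5-null by label at E10, wild-type at E10.5 and Dlx5-null by label at E10.5. Each vesicle replicate pooled 4 to 8 vesicles that had been treated with dispase at 1 mg/ml to loosen attached mesenchyme. The remaining arrays came from the 2B1 line, grown at 32 °C with gamma-interferon, transiently transfected with Dlx5 or with an empty vector that carries only GFP, and then held at 37 °C without gamma-interferon for 4 days. The 2B1 replicates were separate cultures of a single line. The null allele and the strain of the mice were not given in the sources used here.

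Replication genes are a classic readout of proliferation. Before S phase, the origin recognition complex with Cdc6 and Cdt1 loads the MCM ring onto DNA. Cdc45, the GINS complex and Mcm10 then turn the ring into a moving helicase, polymerase alpha with primase starts each strand, and polymerases epsilon and delta extend it behind the Pcna clamp. Many of these genes are transcribed under E2F factors as cells enter S phase. In the otic vesicle, epithelial cells divide while the first neuroblasts leave the epithelium, so cycling and differentiating cells are sampled together in bulk RNA.

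The labels were checked first against Dlx5 itself. On a log2 scale, on which a difference of 1 is a ratio of 2, wild-type vesicles at E10 read 6.20 and 6.30 for the Dlx5 probe set, while those labelled null read 7.27 and 8.02. At E10.5 it read 6.12 and 6.11 in wild-type and 7.97 in each Dlx5-null array. The signal was thus higher, not lower, in all 4 arrays labelled null, and whether this probe set lies in the deleted part of the gene was not given in the sources used here. These groups are therefore called labelled-null below, and a direction between labels rests on the labels alone. In 2B1 cells the same probe set read 5.14 and 4.80 in the arrays given Dlx5. The empty vector arrays read 4.66 and 4.79, so the transfected arrays were higher, with the nearest values of the groups almost equal. All these 2B1 values lay below the mean of all probe sets in their arrays (5.76 to 5.82). Of 9 tested otic epithelium genes in 2B1 cells, Dlx5 among them, 0 had an unadjusted p under 0.05 (limma).

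A few arrays stood apart from their groups. Over all probe sets, both E10 replicate 1 arrays had narrower values (SD 2.32 and 2.33) than the other E10 arrays (2.47 and 2.45), and the median of the tested genes was 7.36 and 7.39 in them against 7.69 and 7.68. Xist, the RNA of the inactive X chromosome in female cells, read 5.07 and 4.98 in these arrays and 8.91 to 9.72 in the other 6 vesicle arrays. At E10.5, labelled-null replicate 2 had an SD of 2.38 and a median of the tested genes of 7.54. The other E10.5 arrays had SDs of 2.45 to 2.47 and medians of 7.71 to 7.73. In 2B1 cells, empty vector replicate 1 had an SD of 2.19 against 2.29 to 2.31. Among the otic epithelium markers, Pax2 fell under the filter on dim genes in vesicles, and Pax2, Pax8 and Gbx2 did so in 2B1 cells. The vesicle and 2B1 arrays differed in mean and maximum in a way that leaves their levels not comparable, so no level is set across them.

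Promoter windows are shown for 5 genes picked by their stage differences, given below. They are Hells, Rfc1 and Orc4, which fell most between E10 and E10.5, and Pold1 and Pold2, which went the other way. Each window is the 250 bases before a RefSeq start in GRCm38.p6, written 5′ to 3′ on the gene's strand. The annotated spans of Hells, Rfc1 and Orc4 begin farther upstream, at 38930262, 65338617 and 48952902, so these windows lie inside the gene. The Pold1 and Pold2 windows lie just outside theirs. The windows are chr19:38930740-38930989 (+) for Hells, chr5:65335640-65335889 (-) for Rfc1, chr2:48950235-48950484 (-) for Orc4, chr7:44548816-44549065 (-) for Pold1 and chr11:5878257-5878506 (-) for Pold2. Capitals mark a match to an E2F motif, and only the Hells window holds one.
Hells: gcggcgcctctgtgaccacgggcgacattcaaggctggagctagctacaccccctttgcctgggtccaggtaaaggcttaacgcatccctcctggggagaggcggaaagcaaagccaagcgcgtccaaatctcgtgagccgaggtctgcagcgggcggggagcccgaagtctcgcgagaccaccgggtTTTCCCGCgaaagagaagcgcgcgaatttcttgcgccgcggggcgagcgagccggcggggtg
Rfc1: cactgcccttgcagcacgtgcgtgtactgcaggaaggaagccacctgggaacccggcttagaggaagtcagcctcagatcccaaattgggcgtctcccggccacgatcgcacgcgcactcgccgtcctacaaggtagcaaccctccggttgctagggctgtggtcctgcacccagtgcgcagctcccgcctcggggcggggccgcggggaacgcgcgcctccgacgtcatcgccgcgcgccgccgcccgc
Orc4: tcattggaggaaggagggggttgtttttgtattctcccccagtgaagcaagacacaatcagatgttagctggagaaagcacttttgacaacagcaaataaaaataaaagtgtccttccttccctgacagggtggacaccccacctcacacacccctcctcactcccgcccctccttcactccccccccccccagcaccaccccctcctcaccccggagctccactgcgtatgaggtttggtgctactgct
Pold1: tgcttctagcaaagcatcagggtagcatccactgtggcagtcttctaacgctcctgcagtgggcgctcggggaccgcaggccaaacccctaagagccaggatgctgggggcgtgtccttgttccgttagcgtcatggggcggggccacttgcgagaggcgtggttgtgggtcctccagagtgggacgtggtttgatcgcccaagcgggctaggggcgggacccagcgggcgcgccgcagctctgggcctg
Pold2: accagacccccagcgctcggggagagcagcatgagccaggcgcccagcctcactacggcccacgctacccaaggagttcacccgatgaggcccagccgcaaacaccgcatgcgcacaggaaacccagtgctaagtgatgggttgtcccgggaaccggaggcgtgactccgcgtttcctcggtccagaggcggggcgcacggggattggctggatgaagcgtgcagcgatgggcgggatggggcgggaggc

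The motif search looked for TTTCCCGC, TTTCGCGC, TTTGCCGC and TTTGGCGC on both strands in windows of 250 bases before and 50 after the start, in which matches of these motifs can overlap. Of the 45 genes, 38 had such a window, and 16 of these (42.1%) held a match, against 2.6% of 27025 genes with a window and 4.41% of the 10973 of them that were tested in vesicles. The matching genes were Orc1, Orc3, Cdc6, Cdt1, Mcm3, Mcm5, Mcm6, Mcm7, Gins3, Rfc3, Pola1, Pole2, Pold1, Pold3, Lig1 and Hells. Stretches of Mcm6, Mcm5, Orc1, Pole2 and Pold1 are given as examples of how the letters sit, with positions counted from the first transcribed base. Mcm3, Mcm7 and Rfc3, with stage differences of 0.00, -0.04 and -0.22, also held 2 matches each.
Mcm6, from -110 to -103: cgtatgctTTTGGCGCgaaaagtg
Mcm6, from -47 to -40: tggacgggTTTGGCGCgaagtagc
Mcm5, from -153 to -146: ccaagaacTTTCGCGCcaaaacgt
Orc1, from -27 to -20: ggttagtgGCGCGAAAagttttct
Pole2, from 11 to 18: cggcggtgGCGCCAAAtcgcgaac
Pold1, from 40 to 47: atcttgtgGCGGGAAAagc
In Mcm5, and at the upstream stretch of Mcm6, a match on the other strand overlaps the one shown. The CCAAT box (letters CCAAT, both strands) was found in 22 of the 38 windows (57.9%), against 41.1% of all windows, and the GC box (letters GGGCGG, both strands) in 28 (73.7%), against 38.2% of all windows and 65.2% of those of tested genes. A match is a run of letters and was not tested for binding.

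The question behind the stage comparison was how the vesicle changes between E10 and E10.5. Hells, a remodelling ATPase that works with DNA methylation in dividing cells, fell most. Orc1 and Orc4 of origin licensing, Mcm6, Mcm10, Rfc1 of the clamp loader, and Pole and Pole2 of polymerase epsilon fell by less. Pold1, the catalytic subunit of polymerase delta, rose. Over both labels, 9 of the 45 genes passed an adjusted p of 0.05 (limma, Benjamini-Hochberg over 13645 genes), 8 lower and 1 higher at E10.5. This compares with 15.8% of all genes tested, 6.54% lower and 9.28% higher. The median difference of the 45 genes was -0.23, against 0.04 over all genes tested. Of the 45 genes, 35 were lower (77.8%, against 44.7% of all genes) and 8 higher, while Mcm3 and Gins2 differed by 0.00. All 4 E10.5 arrays were below all 4 E10 arrays for 16 of the 45 genes, against 9.97% of all genes, and above them for 1, against 15.3% of all genes. In bulk samples, fewer cycling cells and less RNA per cycling cell cannot be told apart.

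**Figure D1:**
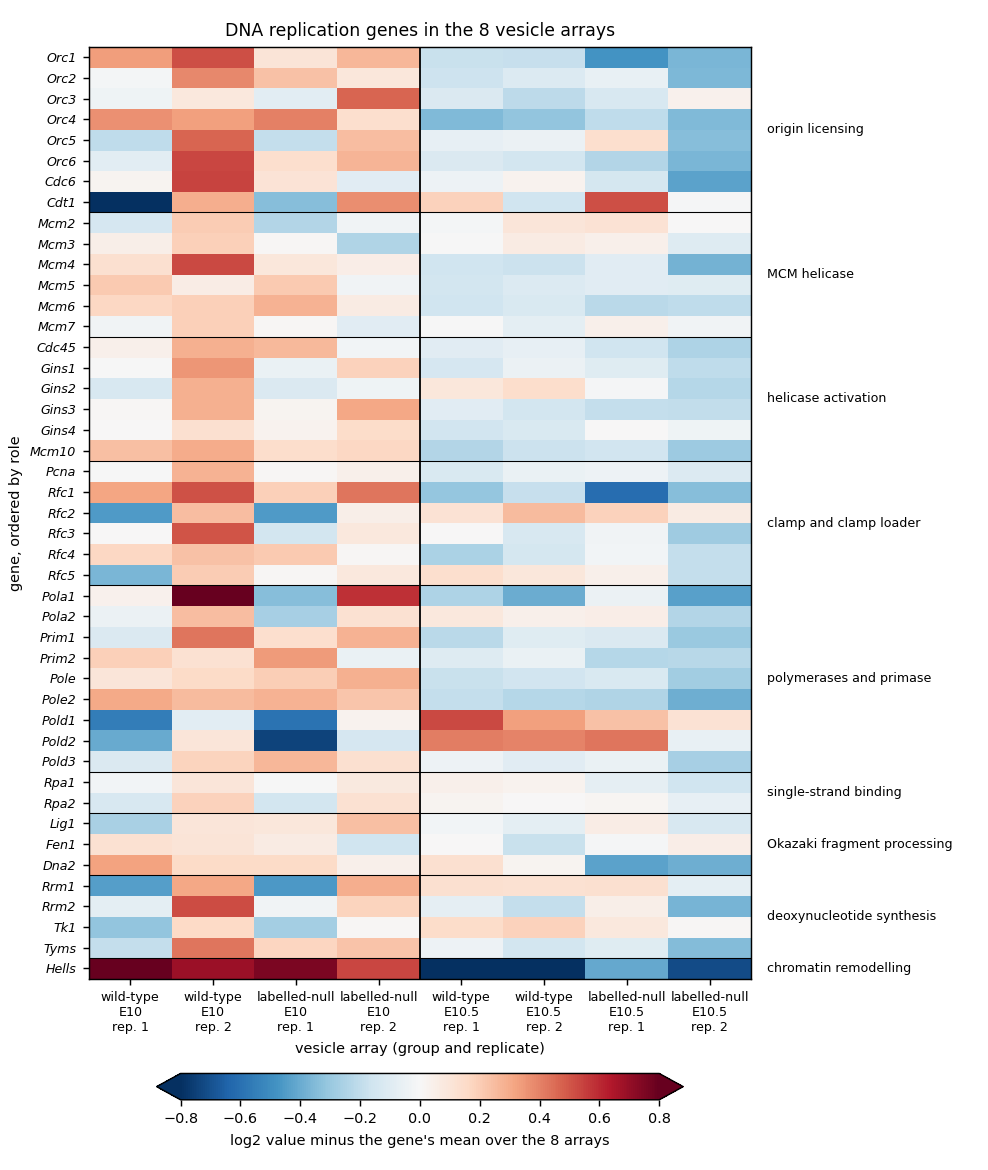
Each row is 1 of the 45 genes, ordered by role, and each column 1 of the 8 vesicle arrays. Colour gives the log2 value minus the gene's mean over the 8 arrays, with red above and blue below the mean and ends of the scale at -0.8 and 0.8. The Hells, Orc4, Rfc1 and Pole2 rows change colour at the line between the stages, and Pold1 and Pold2 run the other way.

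Several markers of other cells rose over the same interval, and their part in these differences was not tested. Of all genes tested, 9.28% were called higher and 6.54% lower. Of the erythroid list, 6 of 7 tested genes rose (limma, adjusted p under 0.05, as for the lists that follow) and none fell, with a median of 2.14. The mean of this list ran from 7.65 to 8.52 in E10 arrays and from 9.46 to 10.69 in E10.5 arrays. Of 11 tested neuronal genes, 7 rose, among them Stmn2, a neuronal microtubule regulator, by 3.23, and Neurod1 fell (-0.76). The neuronal mean ran from 6.58 to 7.26 at E10 and from 7.73 to 8.13 at E10.5. Of the mesenchyme list, 5 of 13 rose (array means of 6.20 to 6.78 at E10 and 6.69 to 7.10 at E10.5), and of the endothelial list 4 of 8 rose (5.80 to 6.06, then 6.33 to 6.64). Otic epithelium genes were mixed, with 3 of 11 higher, including Oc90 (1.58), and 2 lower, including Pax8 (-1.06). Mki67, a proliferation antigen, read 9.81, 10.28, 9.93 and 10.44 in the E10 arrays and 9.47, 9.69, 10.13 and 9.76 in the E10.5 arrays, which overlap.

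Origin licensing came first in the list. Orc1, the ATPase subunit that is regulated through the cell cycle, read 7.77 and 7.95 (wild-type) and 7.54 and 7.70 (labelled-null) at E10. At E10.5 it read 7.26 and 7.25, and 6.96 and 7.07. The stages did not overlap, and Orc1 fell by 0.60 on the log2 scale (SE 0.10, limma adjusted p = 0.00857). Orc4, another subunit with an ATPase fold, read 12.18, 12.14, 12.22 and 11.95 at E10 and 11.46, 11.50, 11.61 and 11.46 at E10.5. Its stages did not overlap either, and it fell by 0.61 (SE 0.11, limma adjusted p = 0.0102). Of its other probe sets, 2 differed by -0.74 each and a dim one by -0.13, and the other probe set of Orc1 differed by -0.09. Of the other licensing genes, Orc2 (-0.34), Orc6 (-0.43), Cdc6 (-0.29), Orc3 (-0.21) and Orc5 (-0.16) were lower without passing the test.

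Cdt1, which brings the MCM ring to origins and is destroyed once S phase begins, was the licensing gene with a higher mean at E10.5. It read 8.93 and 10.08 (wild-type) and 9.45 and 10.16 (labelled-null) at E10, and 9.97, 9.63, 10.30 and 9.78 at E10.5. The low values belong to both E10 replicate 1 arrays, and the stages overlap. Its difference was 0.27 (SE 0.27, limma adjusted p = 0.521), and without those arrays it was -0.20.

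In the MCM ring 1 of 6 genes passed. Its 6 subunits had a median stage difference of -0.13, with 4 lower, 1 higher and Mcm3 at 0.00. Mcm6 read 12.46, 12.48, 12.57 and 12.36 at E10 and 12.13, 12.17, 12.08 and 12.09 at E10.5. These ranges do not overlap, and Mcm6 fell by 0.35 (SE 0.10, limma adjusted p = 0.0442). Mcm4 differed by -0.40 (limma adjusted p = 0.066) and Mcm5 by -0.22, with all 4 E10.5 arrays lower in each. The other probe set of Mcm4 differed by -0.77. Another bright probe set of Mcm5 differed by 0.03, with overlapping stages, and a dim one by -0.475. Mcm2 (0.10) and Mcm7 (-0.04) stood near 0. The subunits assemble into the ring in equal numbers, and differences between their RNAs were not tested.

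Among the activators of the ring, Mcm10, which helps the helicase leave the origin, read 12.01, 12.07, 11.91 and 11.94 at E10. It read 11.54, 11.60, 11.62 and 11.48 at E10.5, below every E10 array, and fell by 0.42 (SE 0.10, limma adjusted p = 0.0235). Cdc45, the helicase partner of the ring, differed by -0.28 and the GINS subunits Gins1, Gins2, Gins3 and Gins4 by -0.24, 0.00, -0.31 and -0.15. Cdc45 and Gins3 were lower in all 4 E10.5 arrays, and none of these 5 genes passed the test. In the other probe sets of Cdc45 (-0.34) and Gins3 (-0.01) the stages overlapped.

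The clamp and its loader split. Rfc1, the large subunit of the loader, read 10.97, 11.16, 10.84 and 11.08 at E10 and 10.34, 10.47, 10.04 and 10.31 at E10.5. The stages did not overlap, and Rfc1 fell by 0.72 (SE 0.12, limma adjusted p = 0.008). This rests on the brightest of 3 probe sets: the others differed by -0.28 and 0.01, and with the mean of the 3 the difference was -0.33 (adjusted p = 0.196). Pcna itself, the ring that tethers the polymerases, read 12.59, 12.87, 12.60 and 12.63 at E10 and 12.47, 12.54, 12.55 and 12.48 at E10.5. All E10.5 arrays were lower, but by a mean of only 0.16 (SE 0.10, limma adjusted p = 0.31). Of the small loader subunits, Rfc4 (-0.31) and Rfc3 (-0.22) were lower and Rfc2 (0.31) and Rfc5 (0.04) higher, none past the test.

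The polymerases showed the widest range. Polymerase epsilon copies the leading strand, and both of its members among the 45 genes fell. Pole2, its second subunit, read 11.56, 11.51, 11.54 and 11.48 at E10 and 11.07, 11.03, 11.02 and 10.87 at E10.5, which are tight and separate, and fell by 0.53 (SE 0.10, limma adjusted p = 0.0116). Pole, its catalytic subunit, read 12.61, 12.67, 12.71 and 12.80, and then 12.34, 12.36, 12.39 and 12.24. It fell by 0.36 (SE 0.10, limma adjusted p = 0.0408).

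Polymerase delta copies the lagging strand, and 2 of its subunits were higher at E10.5. Pold1 read 7.82 and 8.29 (wild-type) and 7.78 and 8.40 (labelled-null) at E10, and 8.90, 8.70, 8.61 and 8.49 at E10.5. Every E10.5 array was above every E10 array, and Pold1 rose by 0.60 (SE 0.17, limma adjusted p = 0.0485). Pold2, the accessory subunit, read 8.48, 8.98, 8.14 and 8.75 at E10 and 9.29, 9.28, 9.31 and 8.82 at E10.5, and missed the threshold (difference 0.59, SE 0.18, limma adjusted p = 0.0619). In both genes the lowest values were those of the E10 replicate 1 arrays. The other probe set of Pold1 differed by 0.27. Without the E10 replicate 1 arrays the differences were 0.33 (limma adjusted p = 0.105) for Pold1 and 0.31 (0.174) for Pold2. Pold3, a further subunit, differed by -0.23.

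Pola1, the catalytic subunit of the priming polymerase, is the only one of the 45 genes on the X chromosome. It read 7.29 and 8.11 (wild-type) and 6.92 and 7.84 (labelled-null) at E10, and 7.01, 6.86, 7.21 and 6.82 at E10.5. The E10 replicates of each label were 0.82 and 0.92 apart, with the lower value in the arrays that were low in Xist, and the part of that difference between the arrays was not tested. The stage difference was -0.57 (SE 0.25, limma adjusted p = 0.151) over all arrays and -1.0 (0.00763) without the E10 replicate 1 arrays. The primase subunits Prim1 (-0.36) and Prim2 (-0.30) and the second subunit Pola2 (-0.03) did not pass the test.

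Of the genes for single-strand binding and for Okazaki fragments, 0 passed the test. The single-strand binding subunits Rpa1 and Rpa2 differed by -0.08 (95% interval -0.30 to 0.14) and -0.01 (-0.28 to 0.25). Rpa1 read 12.76, 12.88, 12.78 and 12.86 at E10 and 12.82, 12.81, 12.71 and 12.62 at E10.5, with overlapping stages. Of the enzymes that process and join Okazaki fragments, the ligase Lig1 (-0.08) and the flap nuclease Fen1 (-0.07) stood near 0. The nuclease Dna2 differed by -0.33 (limma adjusted p = 0.0809). Lig1 read 11.29, 11.65, 11.64 and 11.79 at E10 and 11.53, 11.47, 11.61 and 11.42 at E10.5, again overlapping.

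Deoxynucleotide synthesis held differences in both directions. Ribonucleotide reductase is made of the large subunit Rrm1 (0.15) and the small subunit Rrm2 (-0.29), and of the thymidylate enzymes, the kinase Tk1 differed by 0.21 and the synthase Tyms by -0.32. None of the 4 passed the test. Rrm1 read 10.87, 11.62, 10.85 and 11.60 at E10 and 11.44, 11.43, 11.44 and 11.23 at E10.5. Here too the low E10 values are those of the replicate 1 arrays, and without them the difference was -0.22.

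Hells showed the widest gap of the 45 genes. It read 10.85 and 10.71 (wild-type) and 10.78 and 10.56 (labelled-null) at E10. At E10.5 it read 9.22 and 9.17, and 9.62 and 9.31. Every E10.5 array was below every E10 array, and Hells fell by 1.40 (SE 0.13, limma adjusted p = 0.00299), a ratio of 2.63. Its other probe sets differed by -1.07 and -0.34. In wild-type arrays alone it fell by 1.58 (95% interval -1.99 to -1.18), but this call needed wild-type E10 replicate 1 and each of the 4 E10.5 arrays, and without 1 of them it was lost (limma adjusted p = 0.0766 to 0.374). It differed by -1.21 (-1.61 to -0.80) in labelled-null arrays.

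**Figure D2:**
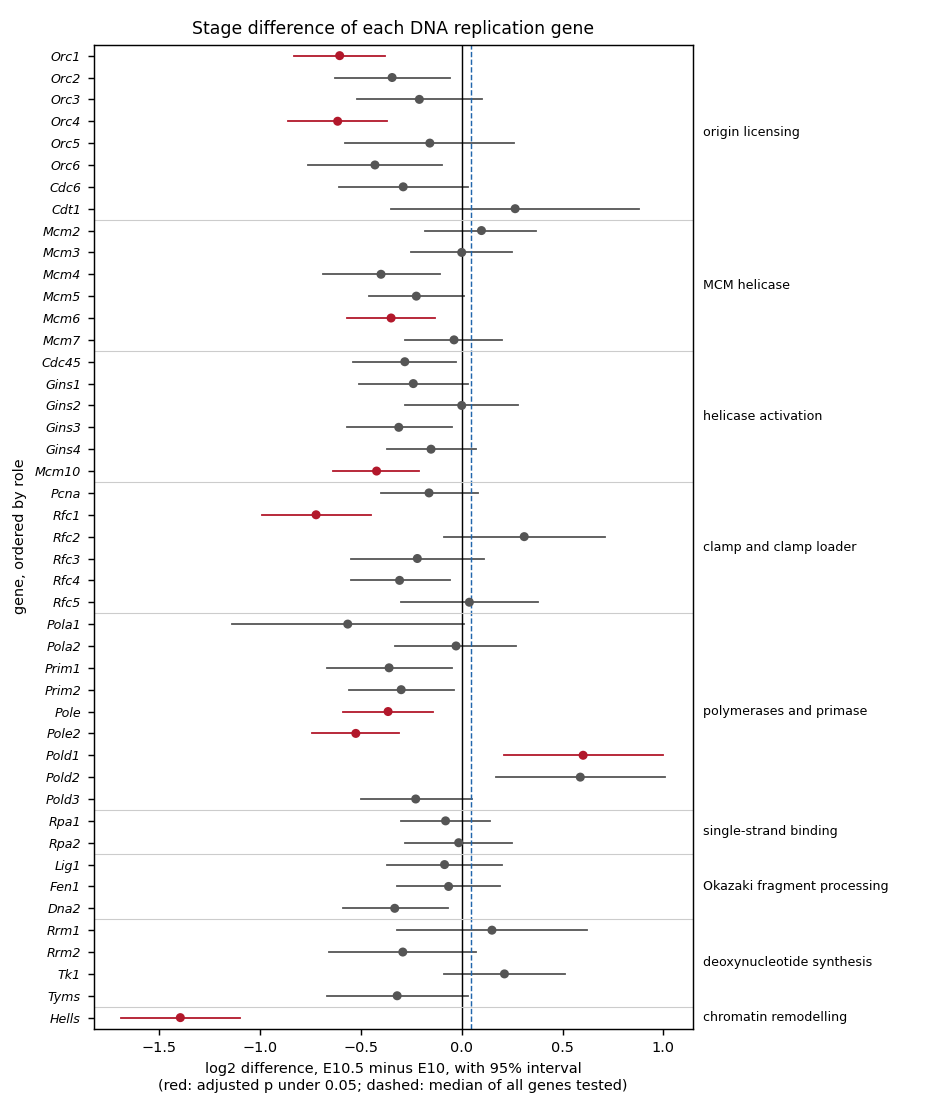
Points are log2 differences between E10.5 and E10 over both labels with 95% intervals, for the 45 genes by role, from limma on 4 arrays per stage. Red marks the 9 genes past an adjusted p of 0.05, and the dashed line is the median of all genes tested (0.04). Most points lie left of the dashed line, Hells farthest (-1.40), while Pold1 (0.60) and Pold2 (0.59) lie right.

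How many genes passed depended on the arrays, the scaling and the filter. Centring each array on its median moved the median stage difference of all genes from 0.04 to -0.10, and the share of higher genes among all genes called from 58.7% to 44.6%. The median of the 45 genes lay 0.27 below that of all genes. Centring cannot change this gap, since it takes 1 constant from all genes of an array. Without the filter on dim genes 6 passed, or 13.3% against 10.7% of all genes. There Mcm6, Pole and Pold1 did not pass (limma adjusted p of 0.056, 0.0509 and 0.0564). With centring 21 of the 45 genes passed (19 lower, 2 higher) and with a further quantile normalization 20 (18 lower, 2 higher). Leaving out wild-type E10.5 replicate 1 gave a count of 3, and leaving out the other array of that group gave 4. Leaving out labelled-null E10 replicate 1, or either labelled-null E10.5 array, gave 5. Without both E10 replicate 1 arrays it was 14, all lower. Of the 59 probe sets of these genes that were not the brightest, 43 had the sign of the brightest one, and in 22 of 35 genes with several probe sets all had 1 sign. Hells, Orc1 and Rfc1 passed in each of the 8 fits that left out 1 array, Orc4 in 7, Pole2 in 6, Mcm10 in 3, and Mcm6, Pole and Pold1 in 1 each.

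**Figure D3:**
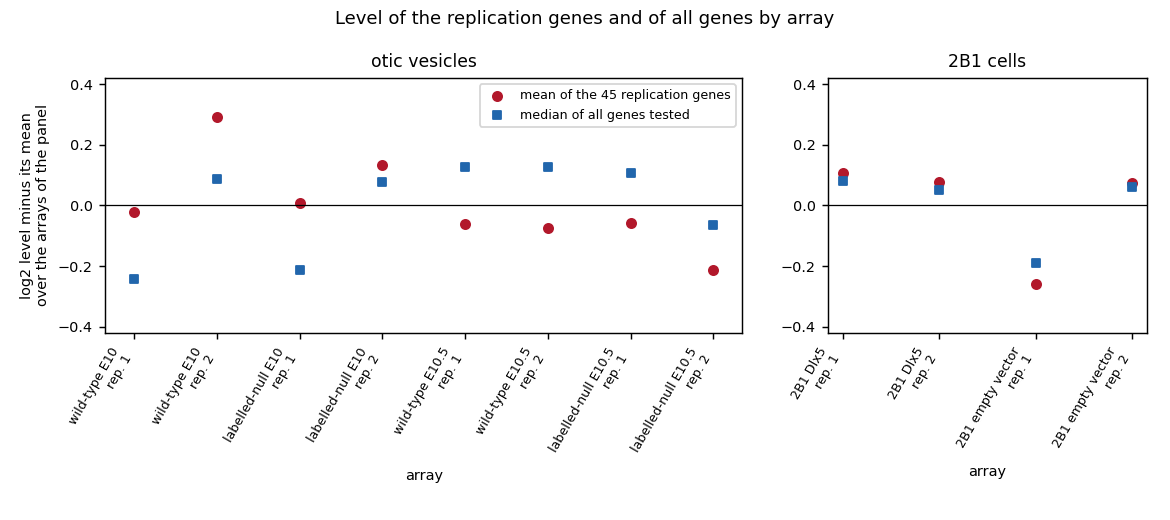
For each array, circles give the mean log2 value of the 45 genes and squares the median of all genes tested, each minus its mean over the 8 vesicle or 4 2B1 arrays. In the E10 vesicles circles lie above squares in every array, in the E10.5 vesicles below them, and in 2B1 cells both are lowest in empty vector replicate 1.

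Within each label the median stage difference was similar, and 2 arrays were compared with 2. In wild-type arrays the median of the 45 genes was -0.23, and 1 gene, Hells, passed (limma, adjusted p = 0.0261), against 2.17% of all genes. At an unadjusted p under 0.05 there were 9, or 20.0%, against 22.5% of all genes. In labelled-null arrays the median was -0.21 and 0 passed in limma, against 0.022% of all genes. There too 9 genes, or 20.0%, had an unadjusted p under 0.05, against 15.3% of all genes. The genes with the widest differences in wild-type arrays beside Hells were Pola1 (-0.77), Orc4 (-0.68) and Rfc1 (-0.66), with Pold1 (0.75), Pold2 (0.56), Cdt1 (0.29) and Rfc2 (0.29) higher. In labelled-null arrays they were Rfc1 (-0.79), Orc1 (-0.60) and Pole2 (-0.57), with Pold2 (0.62), Pold1 (0.46), Rfc2 (0.33) and Cdt1 (0.23) higher. None of these passed.

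The difference in stage effect between labels was tested by the interaction term of limma. Of the 45 genes, 0 passed, against 0% of all genes, and 0 had an unadjusted p under 0.05, against 1.97%. The widest were Pola1 (0.40), Hells (0.38, 95% interval -0.19 to 0.95), Fen1 (0.27) and Mcm4 (0.19), and Dna2 (-0.34), Rfc5 (-0.31), Pold1 (-0.28) and Pold3 (-0.26).

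The comparison of labels asks what loss of Dlx5 does in the vesicle. No replication gene passed the test, and most had slightly lower means in labelled-null vesicles. Over both stages, 0 of the 45 genes passed (limma, Benjamini-Hochberg), against 0.022% of all genes, and 2, Dna2 and Orc1, had an unadjusted p under 0.05, or 4.44% against 4.1% of all genes. The median was -0.07, against -0.01 over all genes, with 37 of 45 lower (82.2%, against 52.6% of all genes). These signs are not independent, since the genes share the same arrays. Without wild-type E10 replicate 2, the array with the highest mean of the 45 genes (10.36, the others 9.86 to 10.20), 21 were lower and the median was 0.01. After centring, 26 were lower. At E10.5 alone the median label difference of the 45 genes was -0.065, with 32 lower (71.1%). Over all genes it was -0.04, with 58.0% lower. With the lowest 50% of genes left out, all genes had a median of -0.075, with 69.0% lower, against 71.1% of the 45 genes. Without labelled-null E10.5 replicate 2, the array with the lowest mean of the 45 genes (9.86), the median of the 45 genes was 0.015, with 18 lower.

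Markers of other cells also differed between labels, and their part in the lean of the replication genes was not tested. Over both stages, all 7 tested erythroid genes had higher means in labelled-null vesicles (median 0.62), as did all 11 neuronal genes (median 0.34), while 11 of 13 mesenchyme genes (median -0.27) and 7 of 8 endothelial genes (median -0.15) had lower ones. In limma 0 genes of these 4 lists passed, and 1, 2, 3 and 2 had an unadjusted p under 0.05, against 4.1% of all genes. Arrays labelled null had erythroid means of 7.65 and 8.48 at E10 (wild-type 7.68 and 8.52), which overlap. Their erythroid means at E10.5 were 10.62 and 10.69 (wild-type 9.46 and 9.48). There 5 of the 7 genes had an unadjusted p under 0.05, against 2.95% of all genes. Neuronal means were higher in them at E10 (7.06 and 7.26, wild-type 6.58 and 6.97) and at E10.5 (7.94 and 8.13, wild-type 7.73 and 7.77). Mesenchyme means overlapped at E10 (6.20 and 6.44, wild-type 6.29 and 6.78) and were lower at E10.5 (6.69 and 6.89, wild-type 6.97 and 7.10). Endothelial means overlapped at E10 (5.80 and 6.06, wild-type both 5.98) and were lower at E10.5 (6.33 and 6.45, wild-type 6.63 and 6.64).

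Dna2 read 8.89 and 8.72 (wild-type) and 8.72 and 8.61 (labelled-null) at E10. At E10.5 the wild-type arrays read 8.70 and 8.59 and the labelled-null arrays 8.14 and 8.18. Both labelled-null arrays were lower at E10.5, as for 28.2% of all genes, and at E10 they touched the wild-type range. The difference was -0.31 over both stages (SE 0.11, limma adjusted p = 0.999) and -0.48 at E10.5 (SE 0.15, limma adjusted p = 1). These Dna2 values are from the brightest of its probe sets, and over both stages the others differed by -0.225 and 0.285. The first of these overlapped at E10.5 (wild-type 8.02 and 8.22, labelled-null 8.12 and 7.40). Orc1 differed by -0.24 (SE 0.10, limma adjusted p = 0.999). It was the only one of the 45 genes whose labelled-null arrays were lower at both stages, against 3.24% of all genes, and none was higher at both stages, against 1.97%. This rests on the brightest probe set of Orc1. The other differed by 0.06 over both stages and was higher in both labelled-null arrays at E10.5 (6.49 and 6.67, wild-type 6.28 and 6.38). Cdc6 (-0.28) and Pold2 (-0.25) followed on the lower side and Cdt1 (0.27), Orc3 (0.14), Lig1 (0.13) and Hells (0.08) on the higher side.

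Each stage was also tested on its own. At E10, 0 genes passed, against 0% of all genes, and 0 had an unadjusted p under 0.05, against 3.31%. The widest differences there were those of Pola1 (-0.32), Rfc3 (-0.28), Pold2 (-0.28) and Cdc6 (-0.27), and of Cdt1 (0.30), Lig1 (0.24), Orc3 (0.17) and Pold3 (0.17). At E10.5, 0 passed, against 0.00733%, and Dna2 alone had an unadjusted p under 0.05, against 2.95% of all genes. After Dna2 came Cdc6 (-0.28), Pold1 (-0.25) and Orc1 (-0.24), with Hells (0.27), Cdt1 (0.24), Gins4 (0.12) and Orc3 (0.12) higher. The 95% interval for Pcna was -0.29 to 0.19 over both stages. For Hells it was -0.22 to 0.38.

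**Figure D4:**
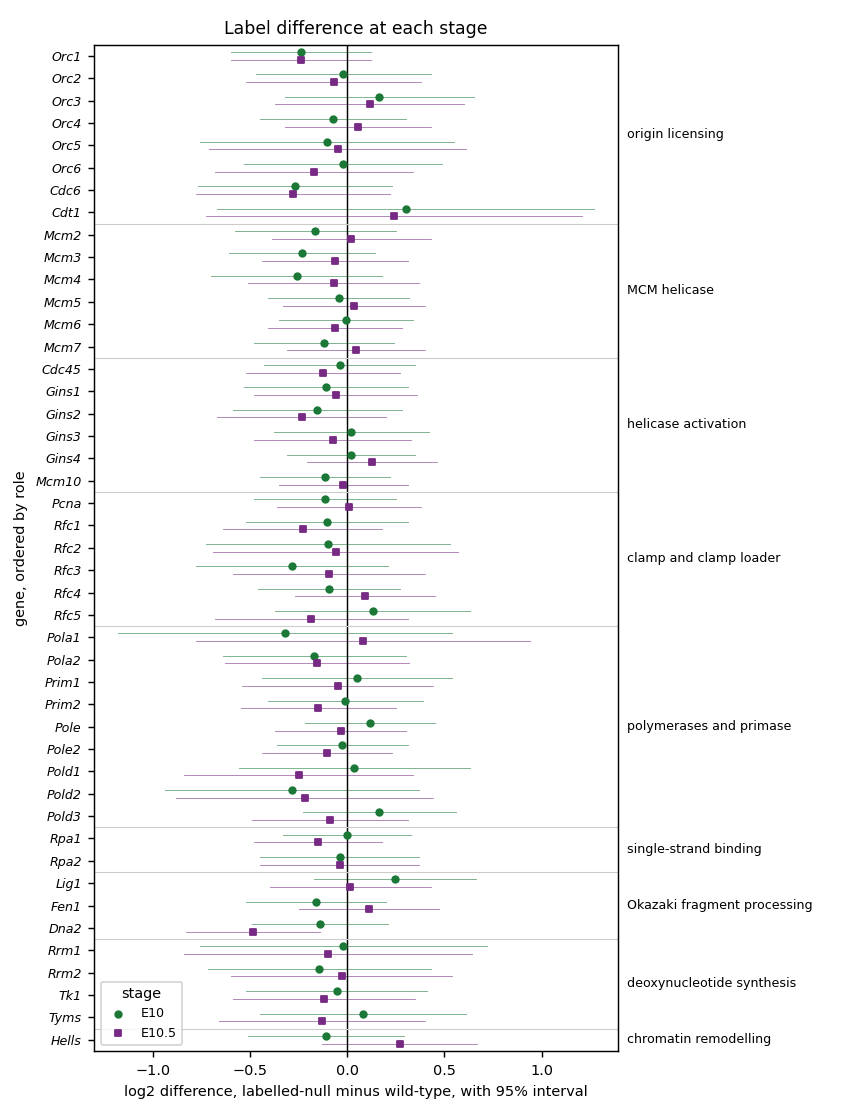
Points are log2 differences between labelled-null and wild-type vesicles for the 45 genes by role, with 95% intervals, circles at E10 and squares at E10.5 (2 arrays per group). All intervals cross 0 except that of Dna2 at E10.5 (-0.48).

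In 2B1 cells the comparison was of Dlx5 transfection with the empty vector. More replication genes read higher than lower after Dlx5 transfection, and the size of that lean depended on 1 empty vector array. Of the 45 genes, 0 passed (limma, Benjamini-Hochberg over 13647 genes), against 0% of all genes. At an unadjusted p under 0.05 there were 8, or 17.8% against 12.9% of all genes. The median was 0.19, against 0.04 over all genes, with 31 higher (68.9%, against 56.3% of all genes) and 13 lower. Both Dlx5 arrays were above both empty vector arrays for 24 genes, or 53.3% against 29.6% of all genes, and below them for 9, or 20.0% against 19.1%.

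The means of the 45 genes were 9.55 and 9.52 in the Dlx5 arrays and 9.19 and 9.52 in the empty vector arrays. Empty vector replicate 1 was the low one: 42 of the 45 genes, and 70.7% of all genes tested, were lower in it than in replicate 2. Without it the median difference was 0.05 and 18 genes were lower, and without empty vector replicate 2 the median was 0.34. Mesenchyme markers were also lowest in that array: their mean was 8.52 and 8.43 in the Dlx5 arrays and 7.97 and 8.28 in the empty vector arrays, with 8 of 10 tested genes higher (median 0.38) and 0 past the test. Whether the state of that array or the cells in it set these values was not tested.

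The widest differences belonged to several steps. Cdc6, the loading ATPase, read 8.26 and 8.15 with Dlx5 and 6.85 and 7.84 with the empty vector (difference 0.86, SE 0.30, limma adjusted p = 0.377). The empty vector arrays were farther from each other than the higher one was from the Dlx5 arrays. Rfc3 read 7.76 and 7.64 against 6.74 and 7.24 (0.71, SE 0.20, limma adjusted p = 0.377). All 6 genes of the clamp and its loader were higher, with a median of 0.46, including Rfc1 at 11.27 and 11.23 against 10.56 and 10.79.

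Dna2 read 10.49 and 10.47 with Dlx5 and 9.66 and 10.02 with the empty vector (0.64, SE 0.18, limma adjusted p = 0.377). Mcm4 read 9.55 and 9.49 against 8.72 and 9.16 (0.58, SE 0.19, limma adjusted p = 0.377). Without empty vector replicate 1 these 4 differences were 0.36 for Cdc6, 0.46 for Rfc3, 0.46 for Dna2 and 0.36 for Mcm4.

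Pole ran the other way, at 9.20 and 9.11 with Dlx5 and 9.71 and 9.92 with the empty vector (-0.66, SE 0.17, limma adjusted p = 0.377). Both Dlx5 arrays were lower, and without empty vector replicate 1 the difference was -0.77. Pola2 (-0.30), Rrm1 (-0.28) and Tk1 (-0.24) were the next lowest. None of these differences passed the test. Another probe set of Rrm1 differed by 0.30 (8.14 and 8.02 with Dlx5, 7.40 and 8.16 with the empty vector), and a dim one by -0.075.

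**Figure D5:**
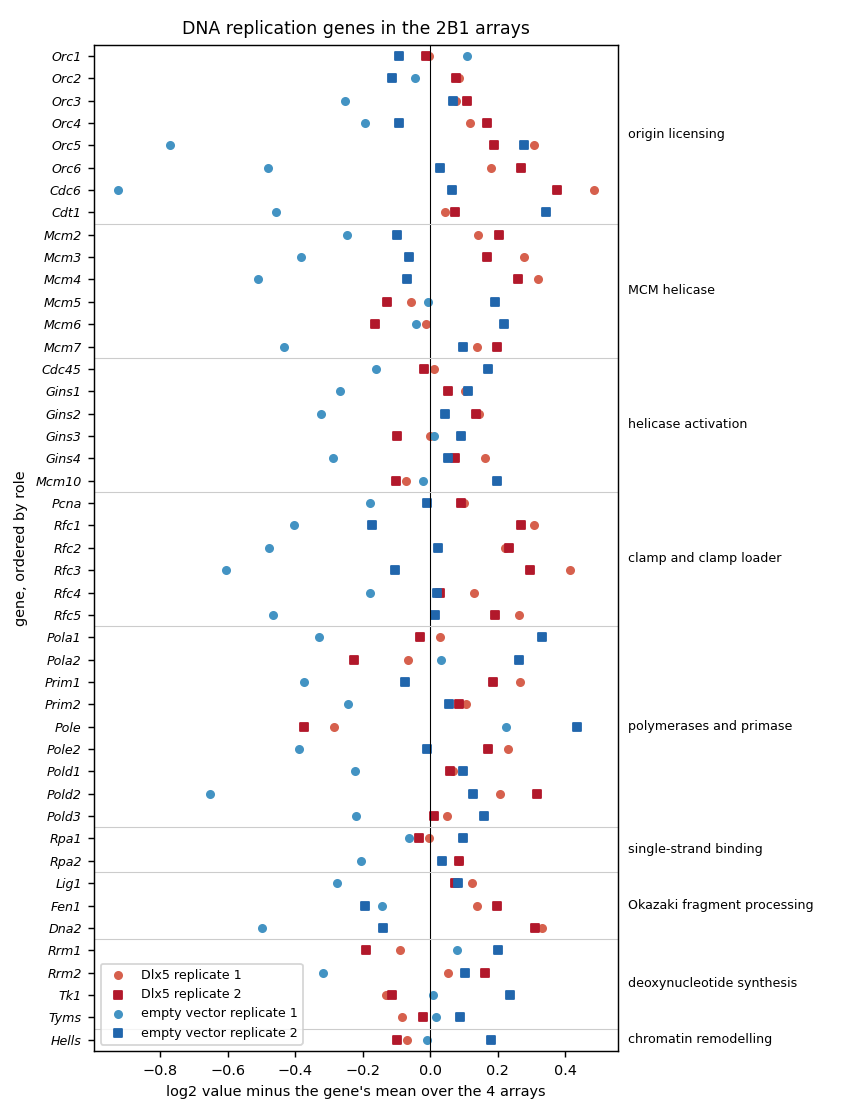
For each of the 45 genes, points give the log2 value in each of the 4 2B1 arrays minus the gene's mean over them, red for Dlx5 and blue for the empty vector. Empty vector replicate 1 (light blue circles) lies at the far left in most rows, and Pole is the row in which both red points lie farthest left of both blue points.

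Other genes of the pathway, from lists that leave the 45 genes out, were described at the stage comparison over both labels, the comparison with the highest count of the 45 genes past the threshold (9). Of 18 regulators of replication, 6 fell and 0 rose (median -0.35). Donson, which helps assemble the helicase, fell by 1.00 (SE 0.12), Clspn, the claspin mediator of the replication checkpoint, by 0.84 (SE 0.12) and Wdhd1, which links primase to the helicase, by 0.77 (SE 0.10). The others were Dbf4, Topbp1 and Gmnn, the licensing inhibitor geminin (-0.44). Of 14 tested genes of nucleotide supply, 3 fell (Dck by 0.72, Mthfd1 by 0.51, Ctps by 0.37) and Cad, which begins pyrimidine synthesis, rose by 0.58.

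Of 15 further polymerase and fork genes, the topoisomerases Top2b (-0.77), Top1 (-0.73) and Top2a (-0.64) fell, as did Pclaf, and Pold4, the smallest subunit of polymerase delta, rose by 1.20 (SE 0.30). Of 10 tested genes of replication-coupled chromatin, 1 fell, the histone chaperone Nasp (-0.78). Of 21 tested cyclins, kinases and E2F genes, 1 fell, the kinase gene Cdk6 (-0.82), and 3 rose, Ccnd3 (0.98), E2f2 (0.50) and E2f4 (0.50). Of 10 tested CDK inhibitors and genes of cell cycle exit, 0 fell and 3 rose, Cdkn1c by 0.76, Btg1 by 0.62 and Cdkn2d by 0.50, with a list median of 0.30. The calls in these 2 paragraphs are from limma at an adjusted p under 0.05, over the same 13645 genes. Of all those genes 6.54% were called lower and 9.28% higher, and no list was tested against these shares.

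For the label over both stages and for transfection, limma called 0 genes of these 6 lists. At an unadjusted p under 0.05 there were 2 for the label, both among the 15 polymerase and fork genes, and 0 in the other lists, against 4.1% of all genes. For transfection there were 3 of 17 tested regulators, 1 of 15 nucleotide supply genes, 1 of 15 polymerase and fork genes, 3 of 11 chromatin genes, 4 of 23 cyclins, kinases and E2F genes and 3 of 10 CDK inhibitors and exit genes, against 12.9% of all genes. By the E2F letters, the median stage difference of the replication genes was -0.23 in the 16 genes with a match and -0.22 in the 22 without, and 5 and 3 of them passed. By the CCAAT letters it was -0.29 in 22 genes and -0.18 in the other 16, and again 5 and 3 passed. By the GC box letters it was -0.255 in 28 genes and -0.22 in the other 10, and 8 and 0 passed. These are descriptions of runs of letters in RefSeq windows, and the differences between genes with and without a match were not tested.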

How the data were processed

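Biotin-labelled RNA of 12 samples was hybridised to 1 Affymetrix array each. The deposited values are on a log2 scale, and the authors used RMA and Affymetrix Expression Console, per the submitters' processing notes, without versions. RMA subtracts background, equalises the arrays' quantiles and combines the probes of a set, and differences of dim probe sets come out compressed. No scanner file, detection call or scan date was used here. The result of 1 marker gene is not reported here.

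Of 45101 probe sets, 34958 listed with 1 gene were kept (932 with several and 9211 with none were left out, among them 2 that name one of the 45 genes beside another gene). Symbols were updated through a RefSeq table of GRCm38.p6. The brightest probe set by mean over the arrays of a fit stood for its gene, and the lowest 25% of genes were left out, which leaves 13645 genes in vesicles and 13647 in 2B1 cells. All 45 genes passed this filter, and 4 used another probe set in 2B1 cells.

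The tests were those of limma 3.58.1 under R 4.3.3, by lmFit and eBayes, with Benjamini-Hochberg adjustment over all genes and a threshold of 0.05, and the 8 vesicle and 4 2B1 arrays were fitted apart. Effects over both stages or labels had 5 residual degrees of freedom, contrasts of group means 4 and the 2B1 contrast 2. The vesicle contrasts share arrays. Scripts were tested on simulated data. The genes, lists and tests were chosen with earlier results of these data known. Named genes are those past the threshold, filled up to 4 per direction by size where fewer than 8 passed, with at least 1 gene per role given in every vesicle array; up to 3 genes per further list were named by size in the comparison with the highest count of the 45 genes past the threshold, and others named there, and 4 matched E2F stretches, were picked after their values were seen. Promoter windows are those RefSeq tables hold, and where a gene has several the outermost of them is shown. That window need not sit at the outermost start of the gene.

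Alternatives were no filter or 50%, the mean of probe sets, single probe sets, centring, a further quantile normalization, a trended and robust variance, a replicate block, and leaving out single arrays or both E10 replicate 1 arrays. No pair of arrays held the same values (at most 2.78% equal).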

Additional observations from a re-analysis of the deposited data

How the results depend on the processing

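In the stage comparison over both labels, the count of 9 replication genes past the threshold became 21 with centring (median -0.38), 20 with a further quantile normalization, 16 of 93 with probe sets tested singly, 14 without both E10 replicate 1 arrays, 11 with the mean of a gene's probe sets, 10 with the lowest 50% of genes left out, 10 with a trended and robust variance and 6 with no filter on dim genes. Leaving out 1 array at a time gave 3 to 10. In wild-type arrays alone the count of 1 became 2 with the mean of a gene's probe sets, 3 with probe sets tested singly, 3 with centring (median -0.43), 6 with a further quantile normalization, 4 with a trended and robust variance and 7 without both E10 replicate 1 arrays. Leaving out 1 array gave 0 to 2, and a median of -0.32 to -0.065. In labelled-null arrays the count of 0 became 1 with a further quantile normalization, 1 with the trended and robust variance and 1 without both E10 replicate 1 arrays, the gene being Hells. With no filter, 13.3% of the 45 genes passed over both labels, against 10.7% of all genes. With the lowest 50% left out it was 22.2% against 24.7%, and with the mean of probe sets 24.4% against 16.2%. Of single probe sets, 17.2% passed against 12.1%. In wild-type arrays the mean of probe sets gave 4.44% against 1.91%, single probe sets 3.23% against 1.46% and the 50% filter 2.22% against 4.15%. The median label difference at E10.5 was 0.04 after centring and -0.14 to 0.015 without single arrays. The median interaction was -0.18 to 0.16 without single arrays. Among 24 values that turned sign, none was past the threshold. For the cause of these changes, beyond fewer arrays or genes in a fit, the cause was not tested.

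Sign changes of named genes under single-array omissions are given as ranges over those omissions. For Cdt1 the stage difference ran from -0.12 to 0.59 in labelled-null arrays and from -0.28 to 0.87 in wild-type arrays, and without both E10 replicate 1 arrays it was -0.12 and -0.28. Its label difference ran from -0.275 to 0.875 at E10 and from -0.02 to 0.50 at E10.5. For Rfc2 the stage difference in wild-type arrays ran from -0.06 to 0.64, and was -0.06 without both E10 replicate 1 arrays. At E10 the label difference ran from -0.11 to 0.44 for Orc3, from -0.78 to 0.14 for Pola1 and from -0.59 to 0.02 for Pold2. Over both stages that of Hells was -0.02 to 0.16. The interaction ran from -0.06 to 0.86 for Pola1, from -0.01 to 0.39 for Mcm4 and from -0.595 to 0.025 for Pold1. With the mean of a gene's probe sets, the label difference was 0.005 at E10.5 for Orc1, -0.067 at E10.5 and -0.015 over both stages for Orc3, and -0.007 at E10 for Pold3, which was -0.05 without both E10 replicate 1 arrays.

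The replicate numbers were not shown to pair the arrays: same-numbered arrays deviated together at E10 (correlation 0.707) but not at E10.5 (0.067) or in 2B1 cells (-0.128). With the replicate number as a block, the counts for the label over both stages, at each stage and for the interaction were 0, as without it, and in 2B1 cells 1 gene passed, Cdc6. With the 2B1 numbers crossed, an alternative added after the data were seen, 0 of the 45 genes and 20 of all genes passed, against 258 of all genes with the numbers as labelled.

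Depth is not known for these arrays. With 2 arrays per group and no detection calls, signal over background was not measured, and differences of dim probe sets are compressed by RMA.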
